A study of Mus musculus with 12 samples.

Results

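MHC class II presentation was followed through 10 genes in mouse liver: the chains of the class II molecules (H2-Aa, H2-Ab1, H2-Eb1), the invariant chain (Cd74), the peptide-loading molecule DM (H2-DMa, H2-DMb1, H2-DMb2), its partner DO (H2-Oa, H2-Ob) and the transactivator Ciita. The genes were taken by name, out of 22911 genes that the probes of the array could be matched to through their RefSeq transcripts. The genes had 15 probes in all, and each gene is represented by its brightest probe over the 12 arrays. Of the 10 genes, 9 were above background on all 12 arrays and were tested. The probe of H2-DMb2 was well above background on 1 of 12 arrays (knockout vehicle 3) and was not tested.

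Class II molecules carry peptides from engulfed proteins to the cell surface, where CD4 T cells read them. The chains assemble in the endoplasmic reticulum around the invariant chain, which blocks the groove and sends the complex to endosomes. There proteases cut the invariant chain down to a short fragment, and DM exchanges that fragment for other peptides while DO restrains DM. CIITA switches on these genes together, through a DNA-bound complex at the X and Y boxes of their promoters. In liver, class II is known mainly from dendritic cells, B cells, Kupffer cells and other macrophages, with lower levels in sinusoidal endothelium, while resting hepatocytes carry little of it.

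The livers came from 12 male mice, 7 weeks old, in 4 groups of 3 with 1 array per mouse. Wild-type mice and IAP knockout mice (Akp3-/-), which lack an alkaline phosphatase of the gut, received either vehicle or IIAEK, a peptide of 5 residues named by their one-letter codes. The peptide was given by mouth at 600 mg/kg body weight daily for 14 days, the vehicle was carboxymethylcellulose sodium salt at 5 g/L, and the mice were fasted for 8 h before dissection. One label field gives weeks in place of days for the peptide. The labels name no cell type or promoter for the knockout, and the strain is not given in the sources used here. Replicate 1 of each group lay on slide 1 and replicates 2 and 3 on slide 2. The slides were scanned on different days, so the 2 cannot be told apart.

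The promoters show what most of these genes share at the DNA level. RefSeq windows of 300 bases (250 before to 50 after the start, build GRCm38.p6) were matched for 7 of the 10 genes, which leaves H2-Ab1, Cd74 and Ciita without one here. The Y box core TGATTGG, searched on both strands, was found in 6 of the 7 genes and in 7.82% of all 32851 windows. An X box pattern, ANNAACNNATGATG, also searched on both strands, was found in 4 of the 7 genes and in 14 windows in all (0.0426%). Both patterns, in that order, without overlap and 10 to 30 bases apart, occurred in 4 windows of all (0.0122%), and these were the windows of H2-Eb1, H2-DMb1, H2-DMb2 and H2-Ob. The X pattern is made of the letters shared by the 14-base stretches of these 4 genes that end in ATGATG and lie 10 to 30 bases before the Y box core, so its share is a description. H2-DMa held neither pattern in its 2 windows, and H2-Aa and H2-Oa held the Y box core alone. A missing match says only that these letters are not in the window. The stretches of 67 bases around the Y box follow, 5′ to 3′ on the strand of the gene, with the matched letters in capitals.
H2-Eb1 (chr17:34305758-34305824, plus strand): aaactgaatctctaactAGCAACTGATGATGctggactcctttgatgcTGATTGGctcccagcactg
H2-DMb1 (chr17:34153080-34153146, plus strand): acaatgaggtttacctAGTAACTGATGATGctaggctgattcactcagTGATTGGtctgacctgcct
H2-DMb2 (chr17:34145109-34145175, plus strand): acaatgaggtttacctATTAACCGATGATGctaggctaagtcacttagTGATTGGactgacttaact
H2-Ob (chr17:34238798-34238864, plus strand): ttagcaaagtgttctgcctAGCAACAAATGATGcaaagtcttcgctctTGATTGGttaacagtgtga
H2-Oa (chr17:34092286-34092352, plus strand): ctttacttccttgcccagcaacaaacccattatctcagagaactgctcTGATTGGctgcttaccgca
H2-Aa (chr17:34287855-34287921, minus strand): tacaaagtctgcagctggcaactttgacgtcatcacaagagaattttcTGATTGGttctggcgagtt

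The spacing between the X pattern and the Y box core was 17 bases in H2-Eb1, 18 in H2-DMb1, 18 in H2-DMb2 and 15 in H2-Ob. The windows of H2-DMb1 and H2-DMb2 are close to each other in sequence, as are the genes. Whether the probe of one gene also reads the transcript of the other was not tested. The H2-DMb2 probe was well above background on 1 of 12 arrays, and the H2-DMb1 probe stood at log2 levels (defined below) of 0.76 to 2.60.

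Arrays of a group were not always alike. Between arrays, the 75th percentile of the signal lay at 453.6 to 758.5, 58.65% to 63.59% of the spots were well above background and 0 were saturated. The first principal component over all tested genes held 55.3% of the variance and set wild-type vehicle 2 and 3 and knockout vehicle 1 and 3 (scores of 74.0 to 88.1) apart from the other 8 arrays (-57.2 to -11.3). Wild-type vehicle 1 was the highest array in the pancreas marker list and wild-type vehicle 2 in the small intestine list, as given below. Both probes of Akp3 were above background on 0 of 12 arrays, so the liver values check no genotype label. With 3 mice in a group, their number limits what the values below can show.

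A level is the log2 processed signal of a gene's probe after subtraction of the log2 75th percentile of that array, so 0 is the 75th percentile and 1 unit is a factor of 2. Levels of different genes come from different probes and are not set against each other. A gene was called where the adjusted p of limma, a linear model with a shared estimate of the spread, was under 0.05 (Benjamini-Hochberg over the 26405 genes tested, two-sided). In liver as a whole, fewer cells of a type and less RNA per cell cannot be told apart.

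The class II genes moved together from mouse to mouse, within groups as well as between them. The highest and lowest arrays of a gene lay 1.73 (Cd74) to 2.29 (H2-Ob) log2 units apart, or 3.33-fold to 4.90-fold, where the median range over all genes tested was 1.07. Group means held 17.2% (H2-DMa) to 52.7% (H2-Ob) of a gene's variance, against a median of 39.6% over all genes. In 3 of the 4 groups at least 1 array had all 9 genes above their own means and another had 0, while the wild-type IIAEK arrays had at most 2.

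The classical chains form the peptide groove. H2-Ab1, the beta chain of the I-A molecule, stood at 4.08, 4.61 and 5.16 in wild-type vehicle livers 1 to 3 and at 3.51, 4.18 and 4.41 in wild-type IIAEK livers. In knockout livers its levels were 4.84, 3.98 and 5.42 under vehicle and 4.73, 5.39 and 3.70 under IIAEK. The groups overlapped throughout, with a low mouse (knockout vehicle 2, knockout IIAEK 3) beside 2 high ones in each knockout group. The 4 probes of H2-Ab1 gave the same picture, with pairwise r of 0.975 to 0.995 over the arrays.

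H2-Aa, the alpha chain that pairs with H2-Ab1, stood at 1.15, 2.65 and 2.74 in wild-type vehicle, 0.84, 1.21 and 1.72 in wild-type IIAEK, 2.28, 0.84 and 2.38 in knockout vehicle, and 2.01, 2.25 and 0.53 in knockout IIAEK. H2-Eb1, the beta chain of the I-E molecule, stood at 4.10, 4.42 and 5.12, then 3.41, 3.88 and 4.13, then 4.85, 3.80 and 5.27, and last 4.74, 5.38 and 3.63 in the same order. Wild-type vehicle 2 was high for H2-Aa and near the middle for H2-Eb1. The log2 difference between H2-Aa and H2-Ab1 within an array spanned 1.21 units over the 12 arrays. Over the same arrays the difference between the probes of H2-DMa and H2-DMb1, the partner chains of DM, spanned 0.53.

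**Figure D1:**
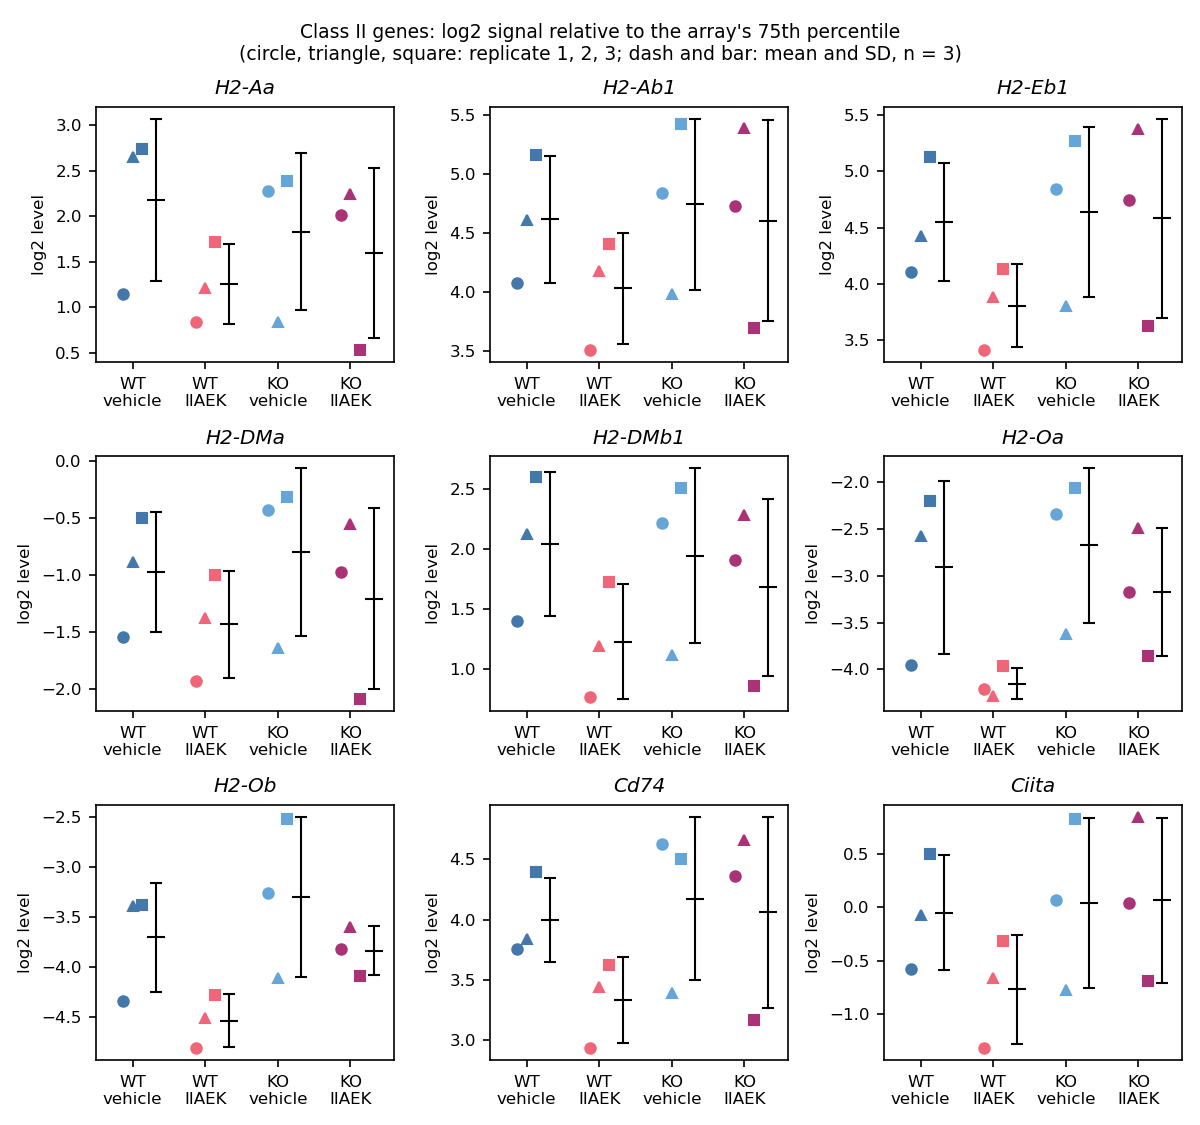
Log2 levels of the 9 tested class II genes (y axes, relative to the array's 75th percentile) by group (x axes), with 1 point per mouse shaped by replicate number and the mean and SD of 3 mice beside the points. In each knockout group 1 of 3 mice was low for these genes, and the wild-type IIAEK mice were low or in the middle.

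Cd74, the invariant chain, stood at 3.76, 3.84 and 4.40 in wild-type vehicle livers and at 2.93, 3.44 and 3.62 in wild-type IIAEK livers. Every wild-type IIAEK mouse was below every wild-type vehicle mouse. In knockout livers Cd74 stood at 4.63, 3.39 and 4.51 under vehicle and at 4.36, 4.66 and 3.16 under IIAEK, and these groups overlapped.

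Among the chains of DM, H2-DMa stood at -1.54, -0.89 and -0.50 in wild-type vehicle, -1.93, -1.38 and -0.998 in wild-type IIAEK, -0.43, -1.64 and -0.32 in knockout vehicle, and -0.98, -0.56 and -2.09 in knockout IIAEK. H2-DMb1 stood at 1.40, 2.12 and 2.60, then 0.76, 1.19 and 1.72, then 2.21, 1.11 and 2.50, and last 1.91, 2.28 and 0.85 in the same order. Both chains were high and low in the same mice.

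The chains of DO had the largest share of variance between the groups among the 9 genes, 48.3% for H2-Oa and 52.7% for H2-Ob. H2-Oa, the alpha chain, stood at -3.96, -2.58 and -2.20 in wild-type vehicle and at -4.20, -4.29 and -3.97 in wild-type IIAEK. In knockout livers it stood at -2.35, -3.62 and -2.06 under vehicle and at -3.18, -2.50 and -3.86 under IIAEK. The wild-type IIAEK mice lay below the wild-type vehicle mice, but narrowly, at -3.967 (IIAEK 3) against -3.957 (vehicle 1). Of all genes, 5.85% were lower without overlap in that comparison. H2-Ob, the beta chain, stood at -4.33, -3.39 and -3.38 in wild-type vehicle, -4.81, -4.51 and -4.28 in wild-type IIAEK, -3.26, -4.11 and -2.52 in knockout vehicle, and -3.82, -3.60 and -4.09 in knockout IIAEK. Its highest value was in knockout vehicle 3, which was also the highest array for H2-Ab1, H2-DMa and H2-Oa. The B cell marker median was highest in that mouse (1.30 above its mean). In knockout vehicle 1, where H2-Ob was next highest at -3.26, the B cell median was -0.36. The other probe of H2-Ob was above background on 0 of 12 arrays. The probes used for H2-Oa and H2-Ob were the dimmest of the 9 tested, with median levels of -3.40 and -3.95.

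Ciita, the transactivator, stood at -0.58, -0.07 and 0.50 in wild-type vehicle, -1.33, -0.67 and -0.31 in wild-type IIAEK, 0.07, -0.77 and 0.83 in knockout vehicle, and 0.04, 0.85 and -0.69 in knockout IIAEK. The difference between Ciita and H2-Ab1 within an array spanned 0.46 log2 units, where Ciita itself spanned 2.18. A dimmer probe of Ciita followed the brighter one less closely (r = 0.60 over the 12 arrays) and gave a change of 0.28 under IIAEK in wild type where the brighter one gave -0.72.

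Taken over the 9 genes, the median deviation from a gene's own mean was -0.42, 0.21 and 0.68 in wild-type vehicle livers 1 to 3, -0.97, -0.50 and -0.14 in wild-type IIAEK, 0.56, -0.54 and 0.87 in knockout vehicle, and 0.22, 0.73 and -0.77 in knockout IIAEK. All 9 genes were above their own means in wild-type vehicle 3, knockout vehicle 1 and 3, and knockout IIAEK 1 and 2. None of the 9 was above its mean in wild-type vehicle 1, wild-type IIAEK 1 and 2, knockout vehicle 2 and knockout IIAEK 3. The pairwise Pearson r over 12 arrays ran from 0.776 to 0.986 over the 36 pairs (median 0.906; Spearman rho 0.741 to 0.993). Over deviations from the group means r was 0.713 to 0.993, and over the 8 arrays without the 4 that stand apart it was 0.616 to 0.987. The points of these correlations share an array and its scaling, and the 9 genes are not 9 independent observations of a group.

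**Figure D2:**
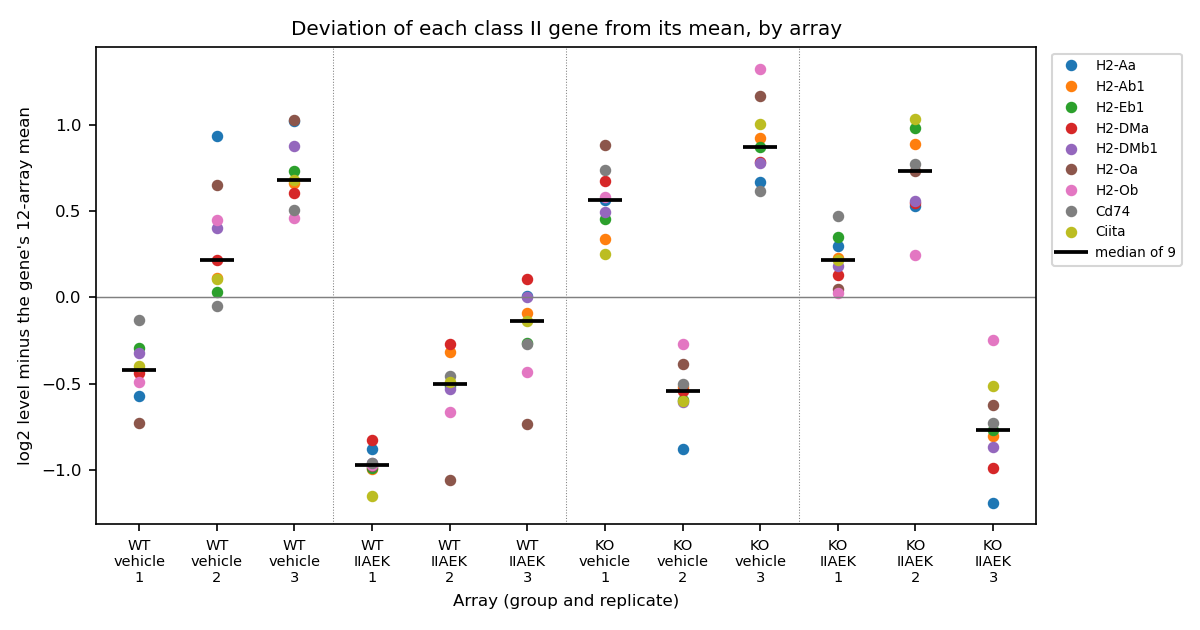
Deviation of each of 9 class II genes from its own 12-array mean (y axis, log2 units) in each mouse (x axis, group and replicate number), with a black dash at the median of the 9. The genes lie close together within a mouse, and the medians run from -0.97 in wild-type IIAEK 1 to 0.87 in knockout vehicle 3.

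The first comparison asks what IIAEK does in wild-type liver. All 9 class II genes had lower means under IIAEK, by -0.46 (H2-DMa) to -1.24 (H2-Oa), with a median of -0.74, where the median over all genes was 0.03 and 46.3% of all genes were lower. The test by limma called 0 of the 9 genes, and it called 0.00379% of all genes. At an unadjusted p under 0.05 it gave 1 of 9, against 12.6% of all genes. That gene was H2-Oa, at a log2 change of -1.24 (SE 0.51, 2.36-fold lower, 95% interval -2.38 to -0.11, adjusted p = 0.395 by limma). Cd74 and H2-Oa did not overlap between the groups (2 of 9, against 5.85% of all genes that were lower without overlap). H2-Ob was lower by 1.78-fold (-0.83, SE 0.38, adjusted p = 0.397 by limma) and Cd74 by 1.59-fold (-0.67, SE 0.42, adjusted p = 0.472 by limma).

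These changes depended on which vehicle mice were in the fit. With any 1 of the 12 arrays left out, 9 of 9 genes stayed lower, but the median moved to -0.47 without wild-type vehicle 3, and it was -0.98 without wild-type vehicle 1. Without wild-type vehicle 1, which was low for the class II genes, H2-Oa was called (-1.76, adjusted p = 0.037 by limma, lowest of a range of 0.037 to 0.919 over the 26 alternatives). That fit called 1 of 9 class II genes and 3908 of the 26405 genes tested. Without the 4 vehicle arrays that stand apart, each vehicle group is 1 mouse whose spread is assumed to be that of the other groups. Then 7 of the 9 genes were lower and 2 higher (H2-Aa 0.11, H2-DMa 0.11), with a median of -0.19. Without wild-type vehicle 1 and 2, the arrays highest in the pancreas and small intestine lists, 9 of 9 were lower with a median of -1.27. Within slide 1, 1 mouse against 1, H2-Oa differed by -0.25 and Cd74 by -0.83. Within slide 2, 2 against 2, they differed by -1.74 and -0.59.

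In knockout liver the direction under IIAEK depended on single mice. With all arrays the means of 8 of the 9 genes were lower, by -0.06 (H2-Eb1) to -0.54 (H2-Ob), and Ciita differed by 0.03. The median was -0.24 beside 0.05 over all genes, of which 43.9% were lower. The test by limma called 0 of 9 and 0% of all genes, with 0 of 9 at an unadjusted p under 0.05 (6.46% of all genes). No gene of the 9 was lower without overlap, against 5.91% of all genes. The 95% intervals were wide, from -1.05 to 0.82 for Cd74 and from -1.38 to 0.30 for H2-Ob, so changes of the size seen in wild type lie inside them. Leaving out any 1 of the 6 knockout mice moved the median by over 1.5 times. It was -0.68 without vehicle 2 and -0.56 without IIAEK 2, with 9 of 9 genes lower in each, and -0.38 without IIAEK 1, with 8 lower. It was -0.097 without vehicle 1, with 6 lower, 0.04 without vehicle 3, with 3 lower, and 0.30 without IIAEK 3, with 2 lower. Without the 4 vehicle arrays that stand apart, which leaves knockout vehicle 2 as the control, 9 of 9 genes were higher under IIAEK, with a median of 0.62.

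The difference between the IIAEK effects, knockout minus wild type, tests whether the response depends on Akp3. It was above 0 for 9 of 9 genes, from 0.05 (H2-DMa) to 0.75 (Ciita), with a median of 0.56 beside 0.02 over all genes, of which 54.1% were above 0. The test by limma called 0 of 9 and 0% of all genes, each of the 9 had an adjusted p of 1.0 by limma, and 0 of 9 had an unadjusted p under 0.05 (1.61% of all genes). For H2-Oa the difference was 0.74 (SE 0.73), with a 95% interval of -0.87 to 2.35. The size of the difference over the 9 genes depended on single mice as well. The median fell to 0.16 without knockout vehicle 2 (7 of 9 above 0), to 0.26 without knockout IIAEK 2 (8 of 9), and to 0.36 without wild-type vehicle 3 or without wild-type IIAEK 1 (8 of 9 each). It rose to 0.87 without wild-type vehicle 1 and to 1.006 without knockout IIAEK 3, with 9 of 9 above 0 in each. Without the 4 vehicle arrays that stand apart the median was 0.67, and without wild-type vehicle 1 and 2 it was 1.11, with 9 of 9 above 0 in each.

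**Figure D3:**
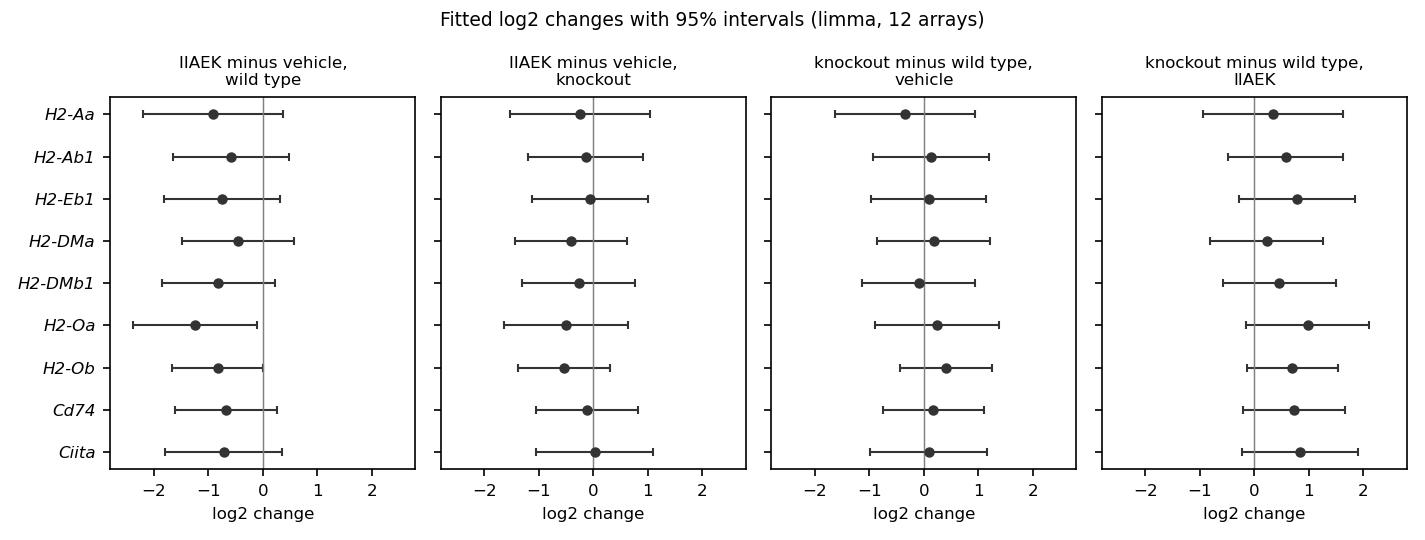
Log2 changes (x axes) of 9 class II genes with 95% intervals from limma over 12 arrays, for IIAEK against vehicle in wild type and knockout and for knockout against wild type under vehicle and under IIAEK. The points lie below 0 in the first panel and above 0 in the last. The unadjusted interval of H2-Oa under IIAEK in wild type, -2.38 to -0.11, leaves out 0 (adjusted p = 0.395 by limma). In that comparison 12.6% of all genes had an unadjusted p under 0.05 by limma.

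Under vehicle, the knockout had higher means than wild type for 7 of the 9 genes, and the direction depended on single mice. Over all genes 40.9% were higher, and H2-Aa (-0.35) and H2-DMb1 (-0.10) were the class II genes that were lower. The median was 0.13 beside -0.07 over all genes, and H2-Ob had the widest difference at 0.41 (SE 0.38, adjusted p = 0.779 by limma). The test by limma called 0 of 9 and 0.00379% of all genes, with 0 of 9 at an unadjusted p under 0.05 (6.88% of all genes), and 0 of 9 were higher without overlap (2.84% of all genes). The slides opposed each other: on slide 1, knockout vehicle 1 exceeded wild-type vehicle 1 by 0.65 (Ciita) to 1.61 (H2-Oa), and on slide 2 the median difference of the 9 genes was -0.24, with 8 of 9 lower. The median was -0.14 without wild-type vehicle 1 (7 of 9 lower), -0.0034 without knockout vehicle 1 (5 lower) and -0.21 without knockout vehicle 3 (7 lower). It was 0.38 without wild-type vehicle 3 (1 lower) and 0.51 without knockout vehicle 2 (0 lower). Without the 4 arrays apart 7 of 9 were lower (median -0.20), and without wild-type vehicle 1 and 2, 8 of 9 were lower (median -0.46).

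Under IIAEK, all 9 genes had higher means in knockout than in wild-type liver, where 47.2% of all genes were higher. The median was 0.70 beside -0.02 over all genes, and the differences ran from 0.23 (H2-DMa) to 0.98 (H2-Oa). H2-Oa and H2-Ob did not overlap (2 of 9), and 12.9% of all genes were higher without overlap. The test by limma called 0 of 9 and 0.00757% of all genes, with 0 of 9 at an unadjusted p under 0.05 (7.88% of all genes). H2-Oa was 1.97-fold higher (0.98, SE 0.51, adjusted p = 0.629 by limma) and H2-Ob 1.62-fold higher (0.70, SE 0.38, adjusted p = 0.629 by limma). Over the 26 alternatives these changes ran from 0.35 to 1.32 for H2-Oa and from 0.19 to 0.83 for H2-Ob. The median was 0.38 without knockout IIAEK 2 (8 of 9 higher) and 1.03 without knockout IIAEK 3 (9 of 9), and with normexp background correction it was 0.45 (9 of 9). The means of this comparison hold none of the vehicle arrays, but its SE and adjusted p use the spread within all 4 groups. On slide 2 alone 7 of 9 were higher (median 0.38), with H2-Aa at -0.08 and H2-DMa at -0.14, and on slide 1, 1 mouse against 1, Cd74 differed by 1.43. It shares its IIAEK mice with the comparisons of IIAEK against vehicle.

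Averaged over genotypes, with 6 mice on each side, all 9 genes were lower under IIAEK (44.4% of all genes were lower), with a median of -0.43 beside 0.04. The test by limma called 0 of 9 and 0% of all genes. At an unadjusted p under 0.05 it gave 2 of 9, against 22.8% of all genes, and these were the chains of DO. H2-Oa was 1.83-fold lower (-0.87, SE 0.36, adjusted p = 0.199 by limma) and H2-Ob 1.61-fold lower (-0.68, SE 0.27, adjusted p = 0.190 by limma). Without wild-type vehicle 1 both were called (H2-Oa -1.13, adjusted p = 0.028, and H2-Ob -0.84, adjusted p = 0.038, by limma). That fit called 2 of 9 class II genes and 6504 of the 26405 genes tested. Without knockout vehicle 2, H2-Ob was called (-0.89, adjusted p = 0.044 by limma), with 2522 of the 26405 genes tested. Without the 4 vehicle arrays that stand apart the direction turned for the whole set, with 9 of 9 genes higher and a median of 0.24 (H2-Oa 0.12, H2-Ob 0.04). With any 1 of the 12 arrays left out 9 of 9 stayed lower, and the median was -0.21 without knockout IIAEK 3. Without wild-type vehicle 1 and 2 it was -0.69. Over the 25 alternatives the adjusted p of limma ran from 0.026 to 0.995 for H2-Oa and from 0.018 to 0.995 for H2-Ob.

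Averaged over treatments, 8 of the 9 genes were higher in knockout than in wild type (43.2% of all genes were higher), and H2-Aa was at -0.0045 with a range of -0.58 to 0.26 over the alternatives. The median was 0.43 beside -0.05, and limma called 0 of 9 and 0.0189% of all genes, with 0 of 9 at an unadjusted p under 0.05 (16.5% of all genes). The widest difference was that of H2-Oa at 0.61 (SE 0.36, adjusted p = 0.402 by limma). The median was 0.23 without knockout IIAEK 2 and 0.27 without knockout vehicle 3, with 8 of 9 higher in each. It was 0.11 on slide 2 alone and 0.14 without wild-type vehicle 1 and 2, with 6 of 9 higher in each. It was 0.24 without the 4 vehicle arrays apart and 0.18 with normexp, with 9 of 9 higher in each.

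The other genes of the pathway were read from 4 lists, and limma called 0 genes of these lists in each of the 7 comparisons. Of 20 genes for class II transcription and interferon-gamma signalling, 13 were lower and 7 higher under IIAEK in wild type (median -0.12). The 2 with the smallest p were Spi1, which encodes the myeloid transcription factor PU.1, at -1.34 (SE 0.50, adjusted p = 0.395 by limma), and Nfyb, a subunit of the factor that binds the Y box, at 0.74 (SE 0.29, adjusted p = 0.395 by limma). Of 16 genes for endosomal processing and class II turnover, 9 were lower and 7 higher (median -0.28). Cd83, which protects class II from turnover, was at -1.97 (SE 0.68) and Marchf8, a ubiquitin ligase of the family that drives it, at 0.68 (SE 0.26), both with an adjusted p of 0.395 by limma.

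Class I presentation did not follow the class II genes over all arrays. Of 16 tested class I genes 12 were higher under IIAEK in wild type (median 0.09), with B2m at 0.25 (SE 0.17) and H2-K1 at 0.30 (SE 0.22). The median of the class I list had r = 0.09 with the mean of H2-Aa, H2-Ab1, H2-Eb1 and Cd74 over 12 arrays, but 0.84 over the 8 arrays without the 4 that stand apart. Of 8 other class II and co-stimulation genes 4 were tested, all 4 lower (median -0.89), among them Cd40, the receptor through which T cells license presenting cells, at -1.19 (SE 0.50), and Cd80, a ligand of CD28, at -0.45 (SE 0.22).

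Markers of leukocytes moved with the class II genes on many arrays but not on all. Under IIAEK in wild type, 9 of 11 dendritic cell markers were lower (median -0.97; Itgax, an integrin, -2.75, SE 0.95, and Clec10a, a lectin, -1.46, SE 0.54). Of 8 leukocyte genes 8 were lower (median -1.36; Cytip -2.12, SE 0.73, and Coro1a, an actin regulator, -1.43, SE 0.58). Of 10 monocyte and neutrophil markers 9 were lower (median -1.73; F13a1, a clotting factor subunit, -2.91, SE 1.12, and the chemokine receptor Ccr2 -1.89, SE 0.78). Of 14 Kupffer cell and macrophage markers 12 were lower (median -0.55), with the scavenger receptor Marco at -2.74 (SE 0.87) and Cd68 at -1.52 (SE 0.64). Other markers of that list moved less, with Clec4f at -0.18, Timd4 at -0.09 and Vsig4 at -0.32. Folr2 (0.14) and Cd163 (0.63) were higher.

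Lymphocyte lists shifted less. Of 10 T and NK cell markers 8 were lower (median -0.36; Klrb1c, a receptor of NK cells, -1.32, SE 0.47, and Cd2, an adhesion molecule, -0.60, SE 0.44). Of 11 B cell markers 7 were lower (median -0.28; Pou2af1, a coactivator of B cells, -0.87, SE 0.55, and Bank1 -0.38, SE 0.26). None of these genes was called by limma. The part of any cell type in the class II values was not tested.

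Set beside the mean of H2-Aa, H2-Ab1, H2-Eb1 and Cd74 over the 12 arrays, the list median had r = 0.87 for T and NK cells, 0.87 for dendritic cells, 0.82 for leukocytes, 0.82 for Kupffer cells, 0.75 for monocytes and neutrophils and 0.37 for B cells. It was -0.78 for hepatocytes (-0.56 over the 8 arrays without the 4 that stand apart). For liver endothelial cells it was -0.30 and turned to 0.51 over the 8 arrays. Knockout IIAEK 1 and 2 were high for the class II genes, and the other lists differed among themselves there. In knockout IIAEK 1 the class II median was 0.22 and that of monocytes and neutrophils -0.98, of leukocytes -0.39 and of dendritic cells -0.07. In knockout IIAEK 2 the class II median was 0.73, that of T and NK cells 0.82, that of B cells 0.39 and that of class I 0.27, while that of monocytes and neutrophils, leukocytes and Kupffer cells was 0.04, 0.04 and -0.04.

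**Figure D4:**
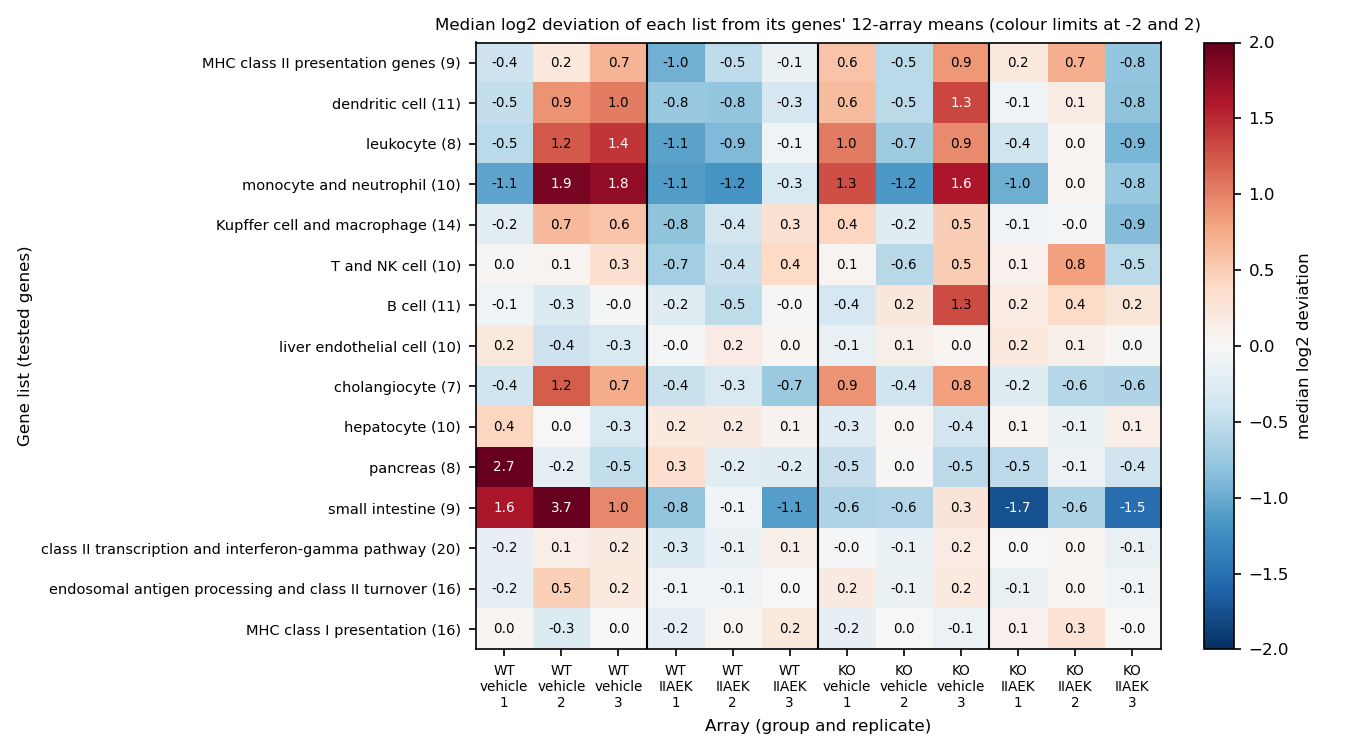
Median log2 deviation of each gene list (rows, with the number of tested genes) from its genes' 12-array means in each mouse (columns, group and replicate number), with colour from -2 to 2. The class II row follows the T and NK cell, dendritic cell, leukocyte and Kupffer cell rows in most mice. Knockout IIAEK 1 and 2 are high in the class II row with leukocyte medians of -0.39 and 0.04.

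The summed signal of the marker lists, in units of the array's 75th percentile, was added up over the tested genes of each list. For dendritic cell markers it was 138 to 198 in wild-type vehicle, 161 to 166 in wild-type IIAEK, 128 to 144 in knockout vehicle and 138 to 154 in knockout IIAEK, with 10 or 11 of 12 markers above background in each mouse and Xcr1 above it in none. For B cell markers it was 1.78 to 1.86, 1.38 to 1.89, 1.53 to 3.26 and 1.83 to 2.02 in the same order, with 9 to 12 of 13 above background and Blk above it in none. For leukocyte genes it was 16.8 to 59.8, 11.9 to 25.8, 14.8 to 47.7 and 13.2 to 26.2, with 8 of 8 above background. For monocyte and neutrophil markers it was 9.71 to 53.4, 10.2 to 22.6, 9.83 to 39.3 and 12.03 to 20.2, with 10 of 10 above background. For Kupffer cell and macrophage markers it was 140 to 380, 111 to 228, 142 to 326 and 106 to 184, with 14 of 14 above background, and for T and NK cell markers 21.5 to 56.4, 31.3 to 45.6, 19.8 to 34.6 and 27.8 to 37.8, with 10 to 12 of 12 above it. A sum is no measure of cell number, since its brightest probe can carry it. Siglech held 94.1% to 99.1% of the dendritic cell sum over the 12 mice and Cd4 77.0% to 94.2% of the T and NK cell sum. Without Siglech the dendritic cell sum was 1.79 to 7.90, 1.40 to 2.34, 1.69 to 7.64 and 1.64 to 3.12 in the same order, and without Cd4 the T and NK cell sum was 3.27 to 4.95, 2.25 to 4.36, 2.33 to 4.48 and 2.61 to 4.93. With Siglech in it, the dendritic cell sum of wild-type IIAEK lay above those of both knockout groups, and without Siglech and Cd4 every pair of groups overlapped in each of these 6 lists.

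Transcripts of the pancreas and small intestine marker lists differed between mice as well, and their source was not tested. The pancreas list had a median of 2.72 above its mean in wild-type vehicle 1, and the small intestine list stood at 1.63, 3.69 and 0.96 in wild-type vehicle 1 to 3 and between -1.74 and 0.25 in the other 9 mice. Under IIAEK in wild type, 8 of 9 small intestine genes were lower (median -3.19). Guca2b, a gut hormone, was at -2.91 (SE 0.66) and Krt20, an epithelial keratin, at -4.96 (SE 1.21), both with an adjusted p of 0.395 by limma. The brightest gene of that list, Fabp2, was higher (0.54, SE 0.21, adjusted p = 0.395 by limma). Over the 12 arrays the small intestine list had r = 0.23 with the class II genes and the pancreas list -0.34. Of 8 pancreas genes 8 were lower under IIAEK in wild type (median -0.87). The pancreatic genes Clps and Cel were at -0.86 (SE 0.61) and -0.57 (SE 0.45), and at 0.63 and 0.14 without wild-type vehicle 1 and 2.

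Lists of epithelial and endothelial liver cells differed in direction under IIAEK in wild type. Of 7 cholangiocyte markers 7 were lower (median -0.93; Cldn7 -0.92, SE 0.31, and Epcam -1.58, SE 0.57, both of cell contacts), with r = 0.60 with the class II genes over 12 arrays and -0.01 over the 8 arrays. Of 10 endothelial markers 8 were higher (median 0.27; the VEGF receptor Flt1 0.54, SE 0.24, and the sinusoidal lectin Clec4g 0.51, SE 0.27). Lyve1 and Stab1 were lower, and Lyve1 had the largest change of that list (-1.04, SE 0.58, and -0.24, SE 0.20). Of 10 hepatocyte markers 8 were higher (median 0.12), with the regulator Hnf4a at 0.48 (SE 0.31), and Tat, an enzyme of tyrosine breakdown, at -1.16 (SE 0.33). All 10 hepatocyte markers were above background in all 12 mice, as the tissue label requires.

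The genes whose levels were most like the class II pattern were sought among 15315 tested genes with a symbol outside the 10, by the Pearson r with the mean of H2-Aa, H2-Ab1, H2-Eb1 and Cd74 over 12 arrays. The highest 8 were Il2rb (r = 0.967), a chain of the receptors for interleukins 2 and 15, Prex1, Plxnb3, Tbc1d10c, Nfatc2, Kif5a, Pld4 and Tnfrsf18 (r = 0.948), and 64 genes had r over 0.9. Over deviations from the group means the highest 8 were Il2rb (r = 0.969), Rtn2, Dok1, Kcna2, Trpm2, Nfatc2, Ptpn22 and Calhm2 (r = 0.962), and 149 genes had r over 0.9. Il2rb and Nfatc2 were in both sets. Over the 8 arrays without the 4 that stand apart, Il2rb had r = 0.973 and Nfatc2 0.968, while Trpm2 had 0.800. Il2rb was at -0.60 and Nfatc2 at -1.20 under IIAEK in wild type.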

How the data were processed

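Per the file headers, Agilent Feature Extraction 10.7.3.1 read the one-colour arrays, and the authors deposited its processed signal, an intensity per spot with the background already subtracted and no scaling between arrays. The software's flags gave spots above background and non-uniform spots. Non-uniform spots were left out (18 probe values missing), the other spots of a probe were averaged, log2 was taken and the array's 75th percentile was subtracted. The deposited series table holds log2 values. Its values followed the scanner levels centred on each probe's median (r = 0.9997 to 0.9999 over the probes of an array). That r does not change with the shift of a whole array, so it does not show how the arrays were scaled. Its column medians were 0.171, 0.154, -0.127 and 0.0145 for replicate 1 (wild-type vehicle, wild-type IIAEK, knockout vehicle, knockout IIAEK), -0.0389, 0.0668, -0.0513 and -0.0485 for replicate 2, and -0.154, 0.0707, -0.110 and 0.0527 for replicate 3. The headers give the build mm9. RefSeq tables of GRCm38.p6 were used for names and promoters only.

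The test took 26405 genes, those with a brightest probe above background in every mouse of 1 or more groups, with limma 3.58.1 in R 4.3.3 on all 12 arrays, 1 mean per group and 8 residual degrees of freedom (prior 2.70). The fit for IIAEK in wild type was run on simulated data. At a simulated log2 change of 1 it called 33 of 100 changed genes, at 3 it called 92 of 100, and 11 calls were false. The noise was drawn independently for each gene, so it holds no shifts shared by the genes of an array. Errors beside log2 changes are SE. The labels say 3 mice per group, and no list was tested as a set. Named genes were the 10 class II genes, per list the members called or otherwise the 2 with the smallest p for IIAEK in wild type, and the 8 genes most like the class II pattern by each measure. The genes, the lists and their markers were chosen with earlier results of these data known. The alternatives were normexp background correction (offset 50), quantile normalization, the series table, other filters, the mean over probes, slide and replicate as blocks, slide 2 alone, a fit on the compared groups alone, a mean-dependent and robust prior in limma, weights per array, and each array left out in turn. Leaving out the 4 vehicle arrays that stand apart, or the 2 highest in the pancreas and small intestine lists, was added after the data had been seen. Same-numbered arrays of different groups did not deviate together (r of -0.546 to 0.645, 8 of 18 pairs over 0.1).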

Additional observations from a re-analysis of the deposited data

How the results depend on the processing

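The count of class II genes called by limma was 0 in each of the 7 comparisons. It stayed at 0 under the alternatives except for IIAEK in wild type without wild-type vehicle 1 (1 gene, H2-Oa) and for IIAEK averaged over genotypes with array weights (2 genes, H2-Oa and H2-Ob), with wild-type vehicle 1 left out (2) and with knockout vehicle 2 left out (1). Leaving out 1 array at a time gave 0 to 1 genes in the first and 0 to 2 in the second. Over all 26405 genes tested, limma called 1 gene for IIAEK in wild type and 3908 without wild-type vehicle 1. For IIAEK averaged over genotypes it called 0, against 7309 with array weights, 6504 without wild-type vehicle 1, 2522 without knockout vehicle 2 and 2059 without wild-type vehicle 1 and 2. With array weights it called 207 for IIAEK in knockout, in place of 0 with equal weights, and 41 for knockout under IIAEK, in place of 2. Without the 4 vehicle arrays apart it called 60 for knockout under vehicle, in place of 1 with all arrays, and 129 for knockout averaged over treatments, in place of 5. The cause of these differences was not tested. With the replicate number as a block, which does not pair these arrays, limma called 0 class II genes in each comparison (all genes: 0 for IIAEK in wild type, 2 for knockout averaged over treatments), and 6 of 12 arrays correlated best with their own number.

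Signs turned for values that were not called. Without the 4 vehicle arrays that stand apart, the IIAEK change in wild type was 0.11 for H2-Aa, 0.11 for H2-DMa, -0.042 for B2m, -0.19 for H2-K1, -0.11 for Flt1, -0.037 for Clec4g and -0.34 for Hnf4a. In knockout it was 0.76 for H2-Aa, 0.62 for H2-Ab1, 0.78 for H2-Eb1, 0.44 for H2-DMa, 0.56 for H2-DMb1, 0.44 for H2-Oa, 0.28 for H2-Ob and 0.67 for Cd74. Averaged over genotypes 9 of 9 turned, to 0.12 for H2-Oa and 0.040 for H2-Ob. The knockout change under vehicle was -0.098 for H2-Ab1, -0.30 for H2-Eb1, -0.10 for H2-DMa, -0.37 for Cd74 and -0.20 for Ciita. Without wild-type vehicle 1 and 2 that change was -0.41 for H2-Ab1, -0.49 for H2-Eb1, -0.30 for H2-DMa, -0.47 for H2-Oa, -0.22 for Cd74 and -0.46 for Ciita, and the IIAEK change in wild type was 0.63 for Clps and 0.14 for Cel. On slide 2 alone the knockout change under vehicle was -0.18 for H2-Ab1, -0.24 for H2-Eb1, -0.29 for H2-DMa, -0.45 for H2-Oa, -0.17 for Cd74 and -0.19 for Ciita, under IIAEK it was -0.081 for H2-Aa and -0.14 for H2-DMa, and the IIAEK change in wild type was 0.10 for Cel. With array weights the IIAEK change in knockout was -0.051 for Ciita.

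Leaving out 1 array at a time, the IIAEK change in knockout ran from -0.74 to 0.30 for H2-Aa, -0.53 to 0.31 for H2-Ab1, -0.47 to 0.42 for H2-Eb1, -0.83 to 0.031 for H2-DMa, -0.68 to 0.15 for H2-DMb1, -0.51 to 0.34 for Cd74 and -0.38 to 0.42 for Ciita. The knockout change under vehicle ran from -0.86 to 0.15 for H2-Aa, -0.21 to 0.51 for H2-Ab1, -0.23 to 0.51 for H2-Eb1, -0.10 to 0.60 for H2-DMa, -0.42 to 0.32 for H2-DMb1, -0.29 to 0.71 for H2-Oa, -0.051 to 0.57 for Cd74 and -0.30 to 0.50 for Ciita. Under IIAEK it ran from -0.099 to 0.67 for H2-DMa. The difference between both IIAEK effects ran from -0.38 to 0.49 for H2-DMa and -0.12 to 0.68 for H2-Ob. In wild type the IIAEK change ran from -1.60 to 0.030 for Clps and -0.92 to 0.12 for Cel. Normexp, quantile normalization and the series table kept 9 of 9 class II genes lower under IIAEK in wild type, with medians of -0.62, -0.77 and -0.73. Normexp moved the share of all genes that were lower from 46.3% to 42.7% there, and from 52.8% to 61.5% for knockout under IIAEK. The small number of arrays limits each value.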
